A study of Mus musculus with 15 samples.

Results

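The 34 genes described here are used as labels of leukocytes and of antigen presentation, and they were followed through RNA sequencing of mouse uterine epithelium. They were taken by gene symbol: each gene whose name equals 1 of the 34 symbols was taken from every table that lists it. The symbols themselves were chosen with earlier results of these data known. All 34 were found among the 28269 genes listed in the series. By role they comprise 4 pan-leukocyte genes (Ptprc, Laptm5, Coro1a, Cd52), 10 surface genes of monocytes and macrophages (Adgre1, Csf1r, Cd68, Cd14, Cd163, Mrc1, Aif1, Cx3cr1, Itgam, Itgax), 3 genes of Fc receptors and their adaptors (Fcgr3, Fcer1g, Tyrobp), 3 chains of complement C1q (C1qa, C1qb, C1qc), 2 lysozymes (Lyz1, Lyz2), 4 genes of MHC class II (Cd74, H2-Aa, H2-Ab1, H2-Eb1), 6 genes of T and natural killer (NK) cells (Cd3e, Cd3g, Nkg7, Gzmb, Prf1, Klrb1c) and 2 calgranulins (S100a8, S100a9).

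The series holds 15 libraries in 5 groups of 3, all from day 4, counted from an event that the labels do not name. From wild-type mice (Ctrl-LE, Ctrl-GE) and from mice labelled E-OEX, the lining of the lumen (luminal epithelium, LE) and the epithelium of the glands (glandular epithelium, GE) were both sequenced, and from mice labelled U-OEx the LE alone. Both of the latter carry the genotype label "overexpress Notch1"; neither the promoter or Cre driver nor the meaning of E and U is given, so E-OEX and U-OEx are used as names only. Nothing says that libraries of a group came from separate animals, so p-values measure the spread between these libraries, which may be technical.

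Leukocytes live in and between the cells of the uterus: macrophages and dendritic cells sample antigen, neutrophils enter around mating, and uterine NK cells expand once a pregnancy is established. MHC class II molecules are pairs of an alpha and a beta chain that carry peptides to CD4 T cells. The invariant chain Cd74 holds the groove until the peptide is loaded. Their genes are switched on by the coactivator Ciita, constitutively in professional antigen-presenting cells and, after interferon gamma, in many epithelia. Epithelia can also make lysozyme, S100a8, S100a9 and Cd14, so no single one of these genes shows that a leukocyte was present. In bulk RNA, fewer cells of a type cannot be told apart from less RNA per cell.

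Promoter windows were matched by symbol in RefSeq (GRCm38.p6) for 26 of the 34 genes; Cd52, Adgre1, Csf1r, Cd14, Tyrobp, C1qa, Cd74 and H2-Ab1 had none. The 120 bases before the start site of the alpha chain gene H2-Aa (chr17:34287824-34287943, minus strand) and the beta chain gene H2-Eb1 (chr17:34305747-34305866, plus strand) are shown because both genes moved together below and both windows hold the classical class II letters. Capitals mark GCAAC, which lies in the X box, and CTGATTGG, the Y box.
H2-Aa: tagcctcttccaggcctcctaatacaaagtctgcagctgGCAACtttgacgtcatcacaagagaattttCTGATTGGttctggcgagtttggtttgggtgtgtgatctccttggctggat
H2-Eb1: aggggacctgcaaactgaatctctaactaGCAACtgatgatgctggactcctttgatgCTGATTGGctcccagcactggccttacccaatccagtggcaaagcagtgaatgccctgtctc
CTGATTGG begins 51 bases before the start of H2-Aa and 62 bases before that of H2-Eb1. Searched on both strands of the windows from 250 bases before to 50 after each start, it occurred in 4.1% of 32851 promoters. GCAAC within the 40 bases before CTGATTGG on the same strand occurred in 44 promoters, or 0.134%. Among the 26 genes with a window, H2-Aa and H2-Eb1 alone held either arrangement. A match describes letters and not a bound factor.

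The windows of the neighbouring lysozyme genes Lyz1 (chr10:117292869-117292988, minus strand) and Lyz2 (chr10:117282273-117282392, minus strand) are shown because these near-copies went opposite ways below. No letters are in capitals.
Lyz1: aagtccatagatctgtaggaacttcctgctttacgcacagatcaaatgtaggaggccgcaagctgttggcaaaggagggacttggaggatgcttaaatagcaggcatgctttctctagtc
Lyz2: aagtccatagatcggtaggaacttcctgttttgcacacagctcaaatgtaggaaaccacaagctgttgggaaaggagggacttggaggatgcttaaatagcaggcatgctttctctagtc
The windows are identical at 111 of 120 positions, or 92.5%. Their annotated transcripts, 1263 and 1316 bases long, align with 92% identity. How reads that fit both copies were counted is not given in the sources used here, so the split between Lyz1 and Lyz2 is uncertain.

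The values are read counts that the authors divided by 1 factor per library, and they are called values here. All 34 genes are listed in the 27946-gene U-OEx tables, 14 in the 6414-gene wild-type tables and 12 in the 4903-gene E-OEX tables. Of these, 7 are in all 3 sets (Cd68, Mrc1, Cx3cr1, H2-Aa, H2-Ab1, H2-Eb1, Gzmb) and 15 are in the U-OEx tables alone. The wild-type and E-OEX tables hold genes whose GE and LE means differ by about 2-fold or more (the smallest absolute log2 ratio is 1 and 0.998), so a gene outside them was not analysed there. Notch1 itself is among those: it was at 2913, 3524 and 2789 in U-OEx LE and was not compared with wild type, so the overexpression was not checked here. Reads summed over listed genes ranged from 1980800 to 4797424 in the wild-type and E-OEX libraries and from 13541644 to 14981505 in U-OEx. The summed level of 6 luminal markers was 34520 to 58820 in wild-type LE against 505.2 to 977.1 in wild-type GE, and 11070 to 14480 in U-OEx LE. The 4 glandular markers listed in every group summed to 16320 to 20540 in wild-type GE and 3873 to 4221 in E-OEX GE. In LE they summed to 24.59 to 30.72 in wild type, 52.68 to 491.1 in E-OEX and 511 to 837.2 in U-OEx. The U-OEx sums came from Foxa2 and Cxcl15 alone, since Ttr and Spink1 had no reads in U-OEx LE. GE libraries also carried more of the stroma markers: the 8 listed in every group summed to 34620 to 100500 in wild-type GE and 76880 to 91310 in E-OEX GE. In LE they summed to 368.8 to 7743 in wild type, 397.2 to 2012 in E-OEX and 550.1 to 1741 in U-OEx.

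Groups were compared with limma on log2(value + 1), for genes with a mean of at least 1, with p adjusted over all genes tested and a threshold of 0.05; log2 differences are on that scale, which understates the change of low genes. Between genotypes the reads of shared genes were first rescaled together, so those differences do not follow exactly from the deposited values printed here. U-OEx LE differed from wild-type LE at 56.9% of the 5949 genes tested, 29.1% higher and 27.8% lower. There, 8 of the 13 genes of the set that were tested were higher, 1 was lower and 4 did not pass; Cd163 failed the filter. In 8 the U-OEx libraries all lay above the wild-type ones and in 1 below, as for 32.7% and 31.2% of all genes. Their median log2 difference was 1.60, against 0.089 for all genes tested. U-OEx LE differed from E-OEX LE at 15% of 4275 genes, 6.97% higher and 8.05% lower, and 5 of the 11 genes of the set tested were higher and none lower; Klrb1c failed the filter. The median was 1.73, against 0.061 for all genes. Both comparisons share the U-OEx libraries, so they are not independent. Of the markers of other cell types, U-OEx LE against wild-type LE was higher at 2 of 7 endothelial genes and at 0 of 8 stroma genes, of which 1 was lower. Of 7 epithelial genes 4 were lower and 1 higher, and of 4 glandular genes 2 were higher and 1 lower. The 2 higher ones were Foxa2, a transcription factor of the uterine glands, by 5.66 (adjusted p = 6.45e-05), and Cxcl15, a chemokine, by 3.80 (adjusted p = 0.000347). U-OEx LE was higher than E-OEX LE at 2 of 6 endothelial genes, 0 of 10 stroma genes and 0 of 2 glandular genes. The 6 endothelial genes listed in every group summed in LE to 126.2 to 187.3 in U-OEx, 54.9 to 206.9 in wild type and 24.83 to 51.12 in E-OEX. The part of such cells in the results was not tested.

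The listing bears on these counts. Genes that wild-type tables list as higher in GE entered through a low LE mean, and the same LE libraries stand in the comparison with U-OEx. Among the 3188 such genes tested, 44.2% were higher in U-OEx LE and 7.56% lower, with a median log2 difference of 1.10. Of the 9 set genes among them, 6 were higher and 1 was lower, a share to be read against that 44.2%. Among the 2761 genes listed as higher in wild-type LE, 11.6% were higher in U-OEx LE and 51.2% lower, and the median was -1.19; here 2 of 4 set genes, Laptm5 and Cd52, were higher. Against E-OEX LE, 3 of 7 set genes listed as higher in E-OEX GE were higher in U-OEx LE, where 7.93% of 2510 such genes were, and 2 of 4 listed as higher in E-OEX LE, where 5.61% of 1765 were.

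E-OEX epithelium gave no call. Against wild-type LE, 0 of 7 set genes passed in E-OEX LE (10.7% of 2600 genes did), and 0 had an unadjusted p under 0.05. Against wild-type GE, 0 of 7 passed in E-OEX GE (23.5% of 2851 genes did), and 1, Mrc1, had an unadjusted p under 0.05. The difference between E-OEX and wild type in the step from LE to GE was also called for 0 of 7, with 0 at an unadjusted p under 0.05, against 10.7% of 2933 genes. edgeR's quasi-likelihood test and DESeq2 also called 0 of the set in each of these 3 comparisons. The listing bears on these counts too. All 7 are listed in both sets of tables, so their GE and LE means differed by about 2-fold or more in each genotype. A gene whose step fell below that in 1 genotype was left out, so the 0 of 7 for the step says nothing about such genes.

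**Figure D1:**
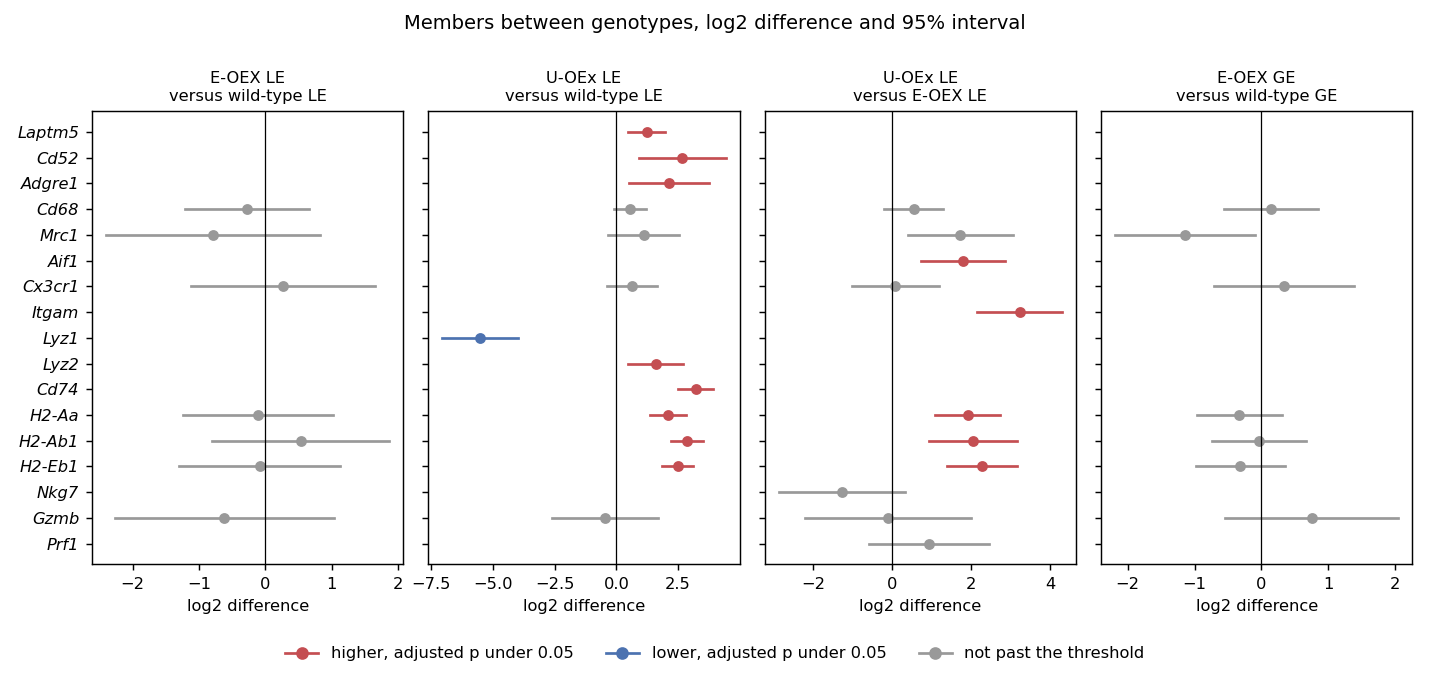
Log2 difference (x axes, a separate range in each panel) of each set gene tested in 4 comparisons between genotypes, with its 95% interval from limma; red is higher, blue lower, grey not past the adjusted p threshold. The 8 higher genes and the lower Lyz1 are in the panel of U-OEx against wild-type LE, 5 higher genes are in the panel of U-OEx against E-OEX LE, and both E-OEX against wild-type panels are grey throughout.

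Of the pan-leukocyte genes, the 2 of the set that could be compared were higher in U-OEx LE than in wild-type LE. Laptm5, a lysosomal membrane protein of blood cells, had values of 899, 602 and 524 in the 3 wild-type LE libraries and 1445, 1243 and 2114 in U-OEx LE. The lowest U-OEx library lay above the highest wild-type one, and Laptm5 was higher by 1.22 on the log2 scale (95% interval 0.46 to 1.98; adjusted p = 0.0136), or 2.34-fold. Cd52, a small glycoprotein of the lymphocyte and monocyte surface, was at 77.7, 24.6 and 83.8 in wild-type LE and 453, 121 and 826 in U-OEx LE, higher by 2.67 (95% interval 0.91 to 4.43; adjusted p = 0.0176). These groups did not overlap, but the 3 U-OEx libraries differed among themselves 6.83-fold from lowest to highest. The Laptm5 call was lost without wild-type LE replicate 3 (adjusted p = 0.0609), and the Cd52 call without wild-type LE replicate 2 or without U-OEx replicate 1 or 3 (adjusted p up to 0.0624). In wild-type GE, Laptm5 was at 135, 152 and 116, below every LE library, while Cd52 was at 16.5, 37.9 and 20.8 and overlapped LE.

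Ptprc, the CD45 phosphatase of leukocytes, was analysed in U-OEx LE alone, at 1569.6, 441 and 2705. Coro1a, an actin regulator of leukocytes, was there at 999, 392 and 1675. For both, replicate 2 was lowest and replicate 3 highest, a pattern that returns below. Of 20 other pan-leukocyte genes, 5 could be tested against wild-type LE, of which 3 were higher and 0 lower, where 29.1% and 27.8% of all genes were. The 2 not called were Fyb and the transcription factor Ikzf1, with log2 differences of -1.19 (adjusted p = 0.152) and -0.37 (adjusted p = 0.327). Lcp1, which bundles actin in leukocytes, was at 315, 70.7 and 167 in wild-type LE and 2835, 1066 and 4344 in U-OEx LE, higher by 3.90 (adjusted p = 0.0016). Against E-OEX LE, where 6.97% of all genes were higher, 1 of 3 was: Vav1, a signalling protein of blood cells, by 2.77 (adjusted p = 0.0106). The adaptor Fyb, the 1 gene of this list tested between E-OEX and wild-type LE, was lower in E-OEX, with a log2 difference of -3.45 (adjusted p = 0.0224).

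Of the monocyte and macrophage surface genes, 1 of the 4 tested against wild-type LE was higher in U-OEx LE and 0 lower, and 2 of 5 tested against E-OEX LE were higher. Over all genes, 29.1% were higher and 27.8% lower against wild-type LE, so 1 of 4 is near that share. Against E-OEX LE 6.97% of all genes were higher. Adgre1, which encodes the macrophage antigen F4/80, was at 36.3, 6.14 and 21.2 in wild-type LE and 99.2, 46.2 and 109 in U-OEx LE, higher by 2.13 (95% interval 0.51 to 3.74; adjusted p = 0.0312). The groups did not overlap, yet the call was lost on quantile-normalised values and without wild-type LE replicate 2 or 3 or U-OEx replicate 1 or 3 (adjusted p up to 0.091). Wild-type LE replicate 2, the lowest for Adgre1 and Cd52, also had the highest stroma sum of its group, 7743; the part of that in the result was not tested.

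Cd68, a lysosomal glycoprotein of macrophages, had LE values of 219, 278 and 221 in wild type, 267, 178 and 227 in E-OEX and 334, 293 and 462 in U-OEx. U-OEx lay above both other LE groups in every library, but neither difference passed: 0.56 against wild type (95% interval -0.08 to 1.20; adjusted p = 0.119) and 0.56 against E-OEX (adjusted p = 0.274). After rescaling, E-OEX LE lay below wild-type LE in every library, as 14.8% of all genes did, with a difference of -0.28 (adjusted p = 0.716). Cx3cr1, the fractalkine receptor of monocytes and tissue macrophages, was at 44.5, 27.7 and 26.8, 30.1, 41.8 and 66.9, and 38.6, 60.4 and 57.6 in the same 3 groups. All 3 overlapped, and no comparison passed.

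Mrc1, the mannose receptor of tissue macrophages, stood far higher in GE than in LE. It was at 138, 58.8 and 151 in wild-type GE and 79.1, 39.1 and 94.6 in E-OEX GE. In LE it was at 1.04, 6.14 and 2.24 in wild type, 1.83, 0.908 and 1.08 in E-OEX and 10.1, 4.44 and 6.72 in U-OEx. No E-OEX LE library held more than 2 reads, so E-OEX GE was at least 24.5-fold higher when LE is set at the floor of 3 reads per library. Between genotypes, the Mrc1 difference was -1.14 in GE (95% interval -2.19 to -0.10; adjusted p = 0.11), with overlapping groups, and 1.73 for U-OEx against E-OEX LE (adjusted p = 0.0763). It passed in GE without wild-type GE replicate 2 (adjusted p = 0.0339). Cd163, the haemoglobin scavenger receptor, was also listed as higher in GE, with no read in the wild-type LE libraries, 8.76, 4.74 and 1.73 in wild-type GE, and 0, 2.67 and 0 in U-OEx LE, where the most was 3 reads.

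The integrin Itgam, the alpha chain of the CD11b receptor of myeloid cells, and Aif1, a calcium-binding protein of macrophages, were both higher in U-OEx LE than in E-OEX LE. Itgam was at 169.8, 53.6 and 60.4 in E-OEX LE and 994, 546 and 1138 in U-OEx LE, higher by 3.23 (95% interval 2.16 to 4.30; adjusted p = 0.00638), or 9.38-fold. Aif1 was at 92.2, 30.0 and 36.7 and 211, 129.7 and 213, higher by 1.80 (95% interval 0.73 to 2.86; adjusted p = 0.0368). Neither pair of groups overlapped, in a comparison where 20.1% of all genes lay wholly higher. Without U-OEx replicate 1 none of the 5 calls of this comparison was kept (Itgam adjusted p = 0.0544, Aif1 0.156); over all genes that fit made 60 calls in place of 642. E-OEX GE held Itgam at 24, 14.9 and 20.6, below every E-OEX LE library, and Aif1 at 34.1, 6.9 and 6.56, where the highest GE library overlapped LE. A second entry of the tables with the symbol Itgam, listed in U-OEx alone at 6.43, 0.889 and 16.3, was kept apart.

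The last 3 surface genes were analysed in U-OEx LE alone. Cd14, the co-receptor for bacterial lipopolysaccharide, was at 10524, 5326 and 8104, the third highest level of the set per kilobase of exons (4610). Csf1r, the receptor that macrophages need to survive, was at 790.3, 359.9 and 1165, and Itgax, the CD11c integrin of dendritic cells, at 191, 168 and 423. Replicate 1 was highest for Cd14 and replicate 3 for the other two.

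**Figure D2:**
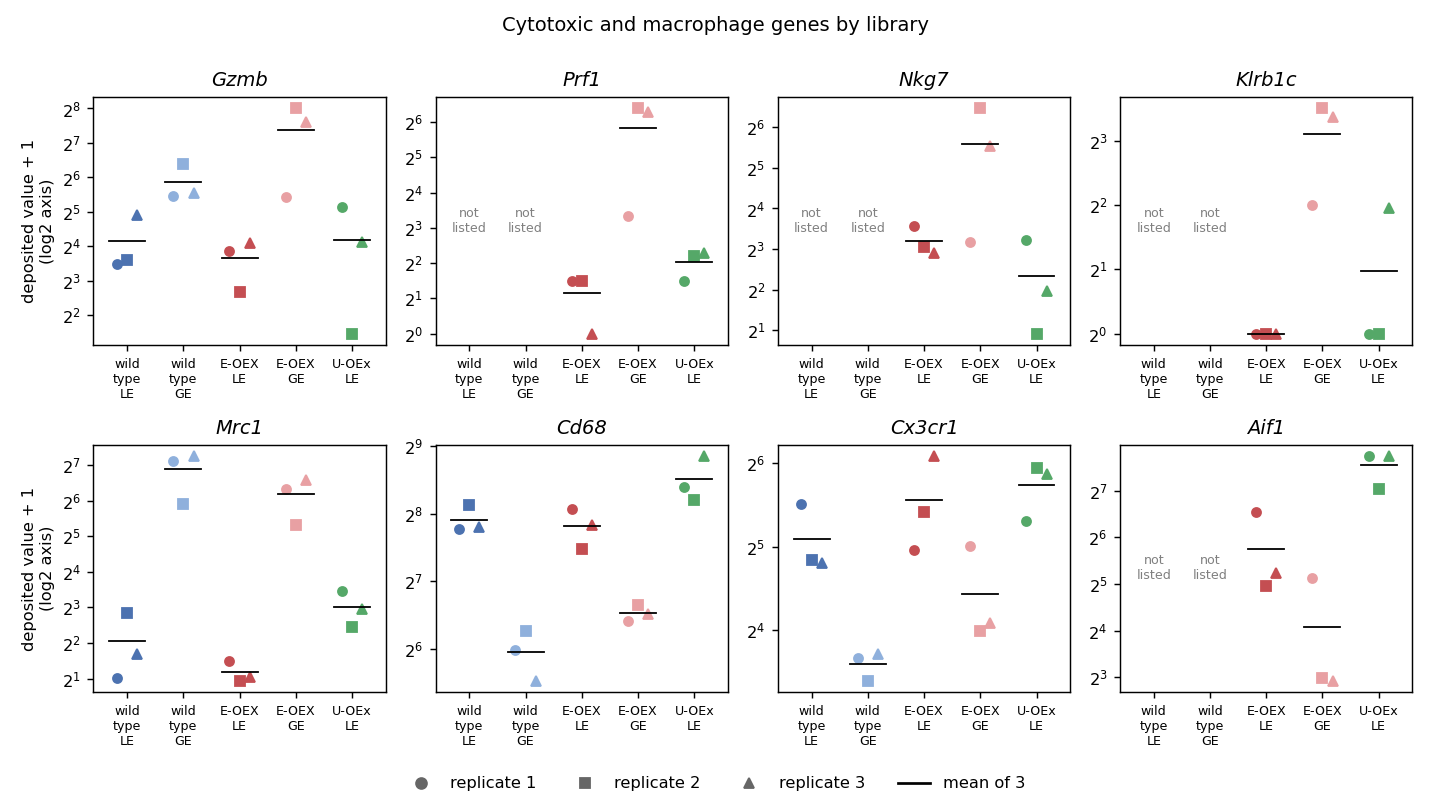
Deposited value + 1 (y axes, log2) in each library for 4 cytotoxic and 4 macrophage genes in the 5 groups (x axes). Symbols are replicates 1 to 3 and black lines the mean of 3. Whether the sets of tables were scaled together is not given. Mrc1 is high in both GE groups, Cd68 is lower in GE than in LE, and replicate 1 of E-OEX GE lies below replicates 2 and 3 for Gzmb, Prf1, Nkg7 and Klrb1c.

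The Fc receptor Fcgr3 and the signalling adaptors Fcer1g and Tyrobp, which pass on the signals of Fc and other activating receptors, were analysed in U-OEx LE alone. Fcgr3 was at 587, 198 and 983, Fcer1g at 631, 218 and 1134 and Tyrobp at 535, 261 and 979.6. They shared the library order of Ptprc, with replicate 3 between 3.75-fold and 5.21-fold above replicate 2. The ratio of Fcer1g to Ptprc was 0.402, 0.494 and 0.419 in the 3 libraries, so it moved 1.23-fold while Ptprc itself moved 6.14-fold.

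The C1q chains, made by macrophages and assembled into the trigger of the classical complement pathway, lie side by side (C1qb, C1qc and C1qa at chr4:136880126-136886200, chr4:136889801-136892936 and chr4:136895916-136898844, GRCm38). In U-OEx LE, C1qa was at 195, 174 and 292, C1qb at 231, 264 and 434 and C1qc at 155, 156 and 286. Here replicate 3 was again the highest for all 3 chains, but replicate 2 was no lower than replicate 1 for C1qb and C1qc. The ratio of C1qb to C1qa stayed between 1.18 and 1.52, and that of C1qc to C1qa between 0.797 and 0.98.

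The lysozymes, enzymes that cut bacterial cell walls, went opposite ways in U-OEx LE. Lyz1, in the intestine a product of Paneth cells, was at 91.2, 67.6 and 131 in wild-type LE and 0.919, 0 and 3.84 in U-OEx LE, where it had 1, 0 and 4 reads. Lyz1 was lower in U-OEx LE, with a log2 difference of -5.51 (95% interval -7.05 to -3.97; adjusted p = 0.000258). Lyz2, the lysozyme of macrophages and neutrophils, was at 964, 295 and 429 and 1897, 1074 and 1761, higher by 1.60 (95% interval 0.48 to 2.72; adjusted p = 0.0222). The Lyz1 call held in 15 of 15 alternative fits. The Lyz2 groups came close, at 964 in wild-type LE replicate 1 against 1074 in U-OEx replicate 2, and after rescaling they overlapped. The Lyz2 call was lost without wild-type LE replicate 2 or 3 or U-OEx replicate 1 or 3 (adjusted p up to 0.0875). Wild-type GE held Lyz1 at 699, 835 and 1286 and Lyz2 at 2656, 2291 and 3926. Of the 3 groups in which these genes are listed, it was the highest for both. With transcripts and promoter windows as alike as those printed above, a shift of reads from 1 copy to the other was not tested.

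All 4 MHC class II genes of the set were higher in U-OEx LE than in wild-type LE, and the 3 that could be compared with E-OEX LE were higher there too. Cd74, the invariant chain, was at 218, 204 and 246 in wild-type LE and 3159, 1776 and 1641 in U-OEx LE, higher by 3.21 (95% interval 2.51 to 3.92; adjusted p = 7.99e-05), or 9.27-fold. H2-Ab1, the beta chain of the I-A molecule, was at 67.3, 67.6 and 89.4 and 661, 451 and 565, higher by 2.86 (95% interval 2.20 to 3.52; adjusted p = 0.000103). In neither gene did a wild-type library come near a U-OEx one. H2-Aa, the alpha chain of I-A, was at 53.9, 85 and 73.8 and 236, 308 and 385, higher by 2.09 (95% interval 1.37 to 2.81; adjusted p = 0.000771). H2-Eb1, the beta chain of I-E, was at 63.2, 67.6 and 80.5 and 374, 398 and 435, higher by 2.48 (95% interval 1.87 to 3.09; adjusted p = 0.000139). All 4 were called in 15 of 15 alternative fits, and the windows shown above for H2-Aa and H2-Eb1 belong to 2 of them. All 4 are also genes listed as higher in wild-type GE, for which 44.2% of genes were higher in U-OEx LE. The summed glandular markers were higher in every U-OEx than in every wild-type LE library. That sum came from Foxa2 and Cxcl15 alone, since Ttr and Spink1 had 0 reads in every U-OEx LE library. The part of these in the result was not tested.

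No difference between E-OEX LE and wild-type LE was called for the 3 class II genes listed in both. H2-Aa was at 96.8, 53.6 and 74.5, H2-Ab1 at 250.1, 54.5 and 131 and H2-Eb1 at 119.6, 43.6 and 78.8. Replicate 1 was highest and replicate 2 lowest for each, and all 3 genes overlapped wild-type LE. The differences were -0.11 (95% interval -1.24 to 1.03), 0.53 (95% interval -0.80 to 1.87) and -0.08 (95% interval -1.29 to 1.12), and these intervals are wide enough to hold a 2-fold increase of each gene. U-OEx LE was higher than E-OEX LE by 1.91 for H2-Aa (95% interval 1.09 to 2.74; adjusted p = 0.0143), 2.05 for H2-Ab1 (adjusted p = 0.0283) and 2.29 for H2-Eb1 (adjusted p = 0.0106). None of the 3 overlapped, in a comparison where 20.1% of all genes lay wholly higher. These 3 calls, like Itgam and Aif1, were lost without U-OEx replicate 1, with adjusted p of 0.0733, 0.133 and 0.0733 and log2 differences of 2.07, 1.89 and 2.31. Without U-OEx replicate 3, Itgam alone was kept. H2-Ab1 was also lost without E-OEX LE replicate 2 or 3, without U-OEx replicate 2 and with no filter on low values, and Aif1 in those fits and 2 others.

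The class II genes were listed as higher in GE than in LE in both genotypes. Wild-type GE held H2-Aa at 288, 247 and 196, H2-Ab1 at 310.5, 259.7 and 216, H2-Eb1 at 337, 255 and 234 and Cd74 at 678, 635 and 532. E-OEX GE held H2-Aa at 304, 206 and 296, H2-Ab1 at 483, 289.7 and 304 and H2-Eb1 at 379.6, 236 and 306. No GE library lay below an LE library of its genotype for any of them; since a 2-fold difference decided the listing, this is a description. In wild type all 4 passed in 15 of 15 alternatives. In E-OEX, H2-Ab1 passed in 5 of 15 alternatives (log2 difference 0.41 to 2.03, adjusted p up to 0.542), and was lost with TMM, quantile normalisation, edgeR, DESeq2, all groups in 1 fit and 5 of the 6 fits without 1 library. H2-Aa and H2-Eb1 passed in 13 of 15 and were lost with quantile normalisation (log2 differences 0.72 and 0.94) and DESeq2 (0.89 and 1.005). The E-OEX GE values overlapped the wild-type GE values for each gene, and the step from LE to GE differed between the genotypes by 0.07 (95% interval -1.09 to 1.23), -0.28 (95% interval -1.77 to 1.22) and 0.06 (95% interval -1.19 to 1.32). Per kilobase of exons in U-OEx LE, Cd74 stood at 1306, H2-Ab1 at 218, H2-Eb1 at 207 and H2-Aa at 81.6.

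**Figure D3:**
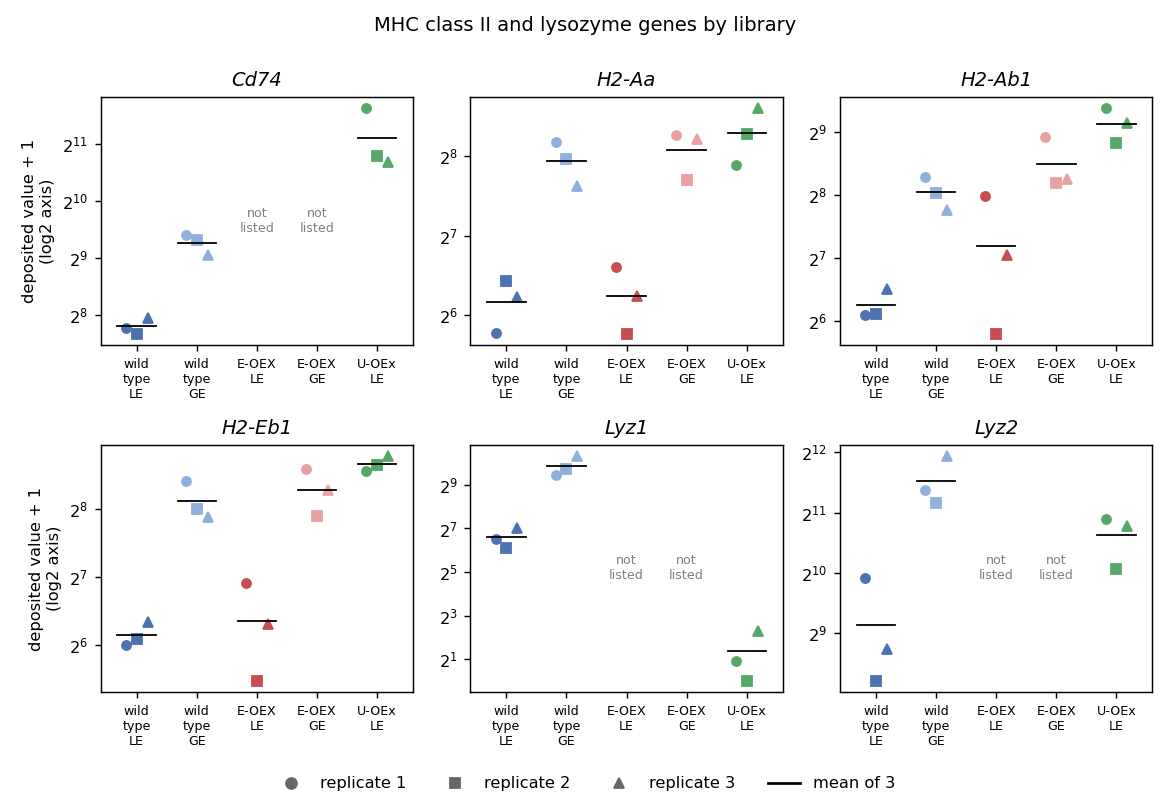
Deposited value + 1 (y axes, log2) in each library for the 4 class II genes and the 2 lysozymes in the 5 groups (x axes). Symbols are replicates 1 to 3 and black lines the mean of 3. Whether the sets of tables were scaled together is not given. For the class II genes U-OEx LE lies above wild-type LE and, where listed, E-OEX LE, and Lyz1 in U-OEx LE is at 4 reads or fewer in every library.

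Other genes of antigen presentation were counted from lists. Of 12 other class II genes and regulators, 5 could be tested against wild-type LE, of which 4 were higher in U-OEx LE and none lower. Over all genes tested, 29.1% were higher there and 27.8% lower. Ciita, the class II coactivator, was at 4.14, 7.17 and 4.47 in wild-type LE, 35, 22.7 and 32 in wild-type GE and 186, 118 and 102 in U-OEx LE, higher in U-OEx than wild-type LE by 4.41 (adjusted p = 0.000106). Ctss, the protease that trims Cd74, was higher by 2.18 (adjusted p = 0.00412). H2-Oa, whose product restrains peptide loading, had no reads in wild-type LE and values of 14.7, 1.78 and 14.4 in U-OEx LE; its partner H2-Ob had 0 reads and 5.51, 10.7 and 7.68. Against E-OEX LE, 2 of 2 class II relatives tested were higher: H2-Ob, with 1 read in each E-OEX LE library, and Ctss by 1.35 (adjusted p = 0.0358). Of all genes in that comparison, 6.97% were higher. Among 9 dendritic cell genes, Ccr7, the receptor that leads dendritic cells to lymph nodes, had no read in wild-type or E-OEX LE and values of 12.9, 18.7 and 10.6 in U-OEx LE. It passed the filter on low values through U-OEx LE alone, as did H2-Oa and H2-Ob against wild-type LE, so no log2 difference is given. Zbtb46, a transcription factor of classical dendritic cells and of endothelium, was below wild type in U-OEx LE (log2 difference -2.67, adjusted p = 0.0018) and in E-OEX LE (-3.11, adjusted p = 0.0234). In all, 1 of 4 dendritic genes was higher and 1 lower against wild-type LE, and 1 of 4 higher against E-OEX LE. The higher gene in both counts was Ccr7. H2-Oa and H2-Ob are likewise among the 4 class II relatives counted as higher than wild-type LE. Since these genes entered the counts through U-OEx LE alone, their calls carry little weight. H2-Ob against E-OEX LE was compared with a group under the floor of 3 reads per library.

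MHC class I and its peptide loading genes, present peptides to CD8 T cells. Of the 18 listed, 9 could be tested against wild-type LE, of which 7 were higher in U-OEx LE, and Tapbp, which bridges class I to the peptide pump, was lower, with a log2 difference of -1.19 (adjusted p = 0.00698). Over all genes tested, 29.1% were higher and 27.8% lower. In wild type 8 of these 9 stood higher in LE than in GE, and 11.6% of genes listed that way were higher in U-OEx LE. Against E-OEX LE, where 15% of all genes passed, 0 of 6 did, with a median log2 difference of -0.06. The class I gene H2-Q7 was higher than wild type in E-OEX LE by 1.63 (adjusted p = 0.035) and in E-OEX GE by 1.22 (adjusted p = 0.0114). It was the 1 of 5 class I genes called in LE, where 10.7% of all genes were called. In GE, where 23.5% of all genes were called, 2 of 5 were higher and 1 lower. The others called there were the peptide pump subunit Tap1 at 0.79 and Tapbp at -0.76. The LE values of H2-Q7 were 1096, 679 and 724 in wild type, 3429, 2811 and 2386 in E-OEX and 3083, 2565 and 2135 in U-OEx. H2-Q7 has close copies among which reads may be split.

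Of the 6 genes of the T and NK group, Gzmb alone could be tested against wild type. Between U-OEx and E-OEX LE, Gzmb, Prf1 and Nkg7 were tested. None of these differed between genotypes at the threshold. In the same LE comparison of U-OEx with E-OEX, 0 of 8 other NK genes and 0 of 4 T and B cell genes passed. Over all 4275 genes tested there 15% passed, so 0 in lists this small says little about these cells. Gzmb, the protease of cytotoxic granules, had LE values of 10.4, 11.3 and 29.1 in wild type, 13.7, 5.45 and 16.2 in E-OEX and 34, 1.78 and 16.3 in U-OEx, with wide overlap. In GE it was at 42.8, 82.5 and 45.9 in wild type and 42.1, 255 and 193 in E-OEX. The GE difference between genotypes was 0.75 (95% interval -0.54 to 2.05; adjusted p = 0.405), and 1.48 without E-OEX GE replicate 1 (adjusted p = 0.0134). That library stood apart from its 2 partners for the cytotoxic genes.

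Prf1, the pore-forming perforin, was at 1.83, 1.82 and 0 in E-OEX LE and 9.01, 82.8 and 76.8 in E-OEX GE. Set at the 3-read floor, E-OEX LE was at least 19.4-fold lower than E-OEX GE. Klrb1c, the NK1.1 receptor, was at 0 in all 3 E-OEX LE libraries and at 3, 10.3 and 9.37 in E-OEX GE, at least 2.61-fold higher. Nkg7, a granule membrane protein, was at 11, 7.27 and 6.48 in E-OEX LE and 8.01, 87.4 and 45.9 in E-OEX GE, where replicate 1 fell among the LE values. In replicate 1 of E-OEX GE the 8 other NK genes summed to 124.2, against 639.2 and 481.5 in replicates 2 and 3 and 52.68 to 62.6 in E-OEX LE. The sums of all 10 stroma markers in the same 3 GE libraries were 80340, 96030 and 89000. In U-OEx LE, Prf1 was at 1.84, 3.55 and 3.84, Nkg7 at 8.27, 0.889 and 2.88 and Klrb1c at 0, 0 and 2.88. Neither Prf1 nor Nkg7 passed against E-OEX LE, with log2 differences of 0.94 (95% interval -0.58 to 2.46) and -1.27 (95% interval -2.86 to 0.33). The T cell receptor chains Cd3e and Cd3g were analysed in U-OEx LE alone, at 59.7, 28.4 and 34.6 and 48.7, 27.5 and 57.6.

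The balance of GE and LE among listed genes of the set depended on the scaling. In wild type, 10 of the 14 listed set genes stood higher in GE at the threshold and 3 higher in LE (Laptm5, Cd68, Cx3cr1), where 97% of the listed genes passed by the way they were selected, 56.6% higher and 40.5% lower in GE. The libraries of the same 13 did not overlap, which held for 55.9% of genes toward GE and 40% toward LE. Cd163, counted among the 10, had 0 reads in every wild-type LE library and 9, 5 and 2 in GE. It passed the filter on low values through GE alone, so its call carries little weight. Adgre1, 1 of the 10, was lost in 9 of 15 alternatives (log2 difference down to 0.75, adjusted p up to 0.29) and Gzmb in 4, while Cd52 was called lower in GE in 5, TMM, edgeR and DESeq2 among them. DESeq2 gave 7 higher and 4 lower. In E-OEX, 7 of 12 stood higher in GE and 3 higher in LE (Cd68, Aif1, Itgam), where 91.6% passed, 61.5% higher and 30.1% lower. In E-OEX 9 did not overlap, 7 higher and 2 lower, against 60.5% and 29.4% of genes. Klrb1c, counted among the 7, had 0 reads in every E-OEX LE library and 3, 9 and 10 in GE. Its call likewise rests on GE alone. With TMM, or edgeR's test, 6 were higher and 4 lower, with DESeq2 4 and 4, and with quantile normalisation 3 and 4; the fourth lower gene in each was Cx3cr1. Aif1 was lost in 5 of 15 alternatives. Of the marker lists for stroma, smooth muscle and endothelium, every listed gene stood higher in GE in both genotypes (20 genes in wild type and 22 in E-OEX). The part of these cells in the GE values was not tested.

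S100a8 and S100a9, which pair into calprotectin, a metal-binding protein that neutrophils hold in bulk, had the highest mean levels per kilobase of exons in the set in U-OEx LE, the only group where they were analysed. By mean value Cd14 was higher, at 7985 against 7076 for S100a9 and 5974 for S100a8, and in replicate 2 it exceeded both by either measure. S100a8 was at 6694, 456 and 10773 and S100a9 at 7533, 617 and 13079, or 8608 and 13556 per kilobase on average. Replicate 2 was 21.2-fold to 23.6-fold below replicate 3 and far below replicate 1. The ratio of S100a9 to S100a8 was nevertheless 1.13, 1.35 and 1.21, so the pair moved together. Both lie on chromosome 3 (chr3:90669071-90670034 and chr3:90692630-90695721, GRCm38). Of 14 neutrophil and eosinophil genes, 4 could be tested against wild-type LE and 3 were higher. Ly6g, the gene not called, was at 39.4, 19.5 and 27.9 in wild-type LE and 39.5, 4.44 and 97 in U-OEx LE. Mmp9, a granule protease, had 0 reads in wild-type LE and 1785, 498 and 3168 in U-OEx LE, and Retnlg, a neutrophil secreted protein, 0 and 577, 12.4 and 988. Both were lowest in U-OEx replicate 2, like the calgranulins. Mmp9, Retnlg and Ccr3, another gene of that list, had 0 reads in every wild-type LE library. They passed the filter on low values through U-OEx LE alone, so no log2 difference is given and their calls carry little weight. All 3 are listed as higher in wild-type GE, and 44.2% of genes listed that way were higher in U-OEx LE. Against E-OEX LE 0 of 2 genes of that list passed.

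**Figure D4:**
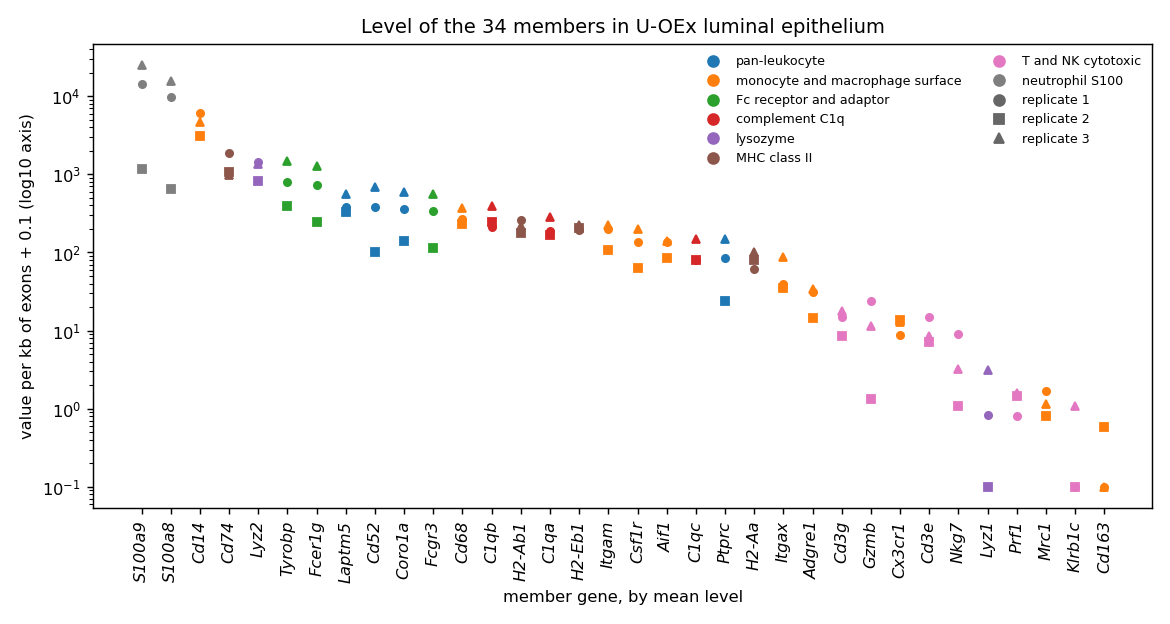
Value per kilobase of exons + 0.1 (y axis, log10) of the 34 genes in the 3 U-OEx LE libraries, ordered by their mean (x axis), coloured by role and with symbols for replicates 1 to 3. The calgranulins and Cd14 lead, Cd163, Klrb1c and Mrc1 close the order, and replicate 2 of the calgranulins lies more than 10 times below their other replicates.

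Within U-OEx LE the libraries fell in the same order for most of the set. Of the 32 set genes with a mean of at least 1, replicate 2 was lowest for 25 (78.1%), against 34% of 23333 genes, and replicate 3 was highest for 23 (71.9%), against 36.2%. The median log2 ratio of replicate 2 to the mean of the other two was -0.84 over the set and -0.01 over all genes. By role that median was -4.16 for the calgranulins, -2.02 for the pan-leukocyte genes, -1.98 for the Fc group and -0.81 for the monocyte and macrophage surface. For the class II genes it was -0.23, and replicate 2 was lowest for 1 of these 4. The ratio of H2-Ab1 to Ptprc accordingly ran 0.421, 1.02 and 0.209 over replicates 1, 2 and 3. Among genes outside the set, the 18 class I genes summed to 103100, 82860 and 76790 over replicates 1, 2 and 3. Replicate 2 was lowest for 19 of 20 other pan-leukocyte genes and 9 of 10 neutrophil and eosinophil genes. Stroma markers were also lowest in replicate 2 for 6 of 9, with replicate 3 highest for 7 of 9 and sums of all 10 of 1019, 686 and 2679; the 10 epithelial markers summed to 80500, 91920 and 72290. Their part in the result was not tested. In E-OEX LE, replicate 1 was highest for 9 of 11 set genes (81.8%, against 42.6% of 4104 genes) and replicate 2 lowest for 8 (72.7%, against 38.1%); the sums of all 10 stroma markers in these libraries were 2734, 1214 and 507.3.

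**Figure D5:**
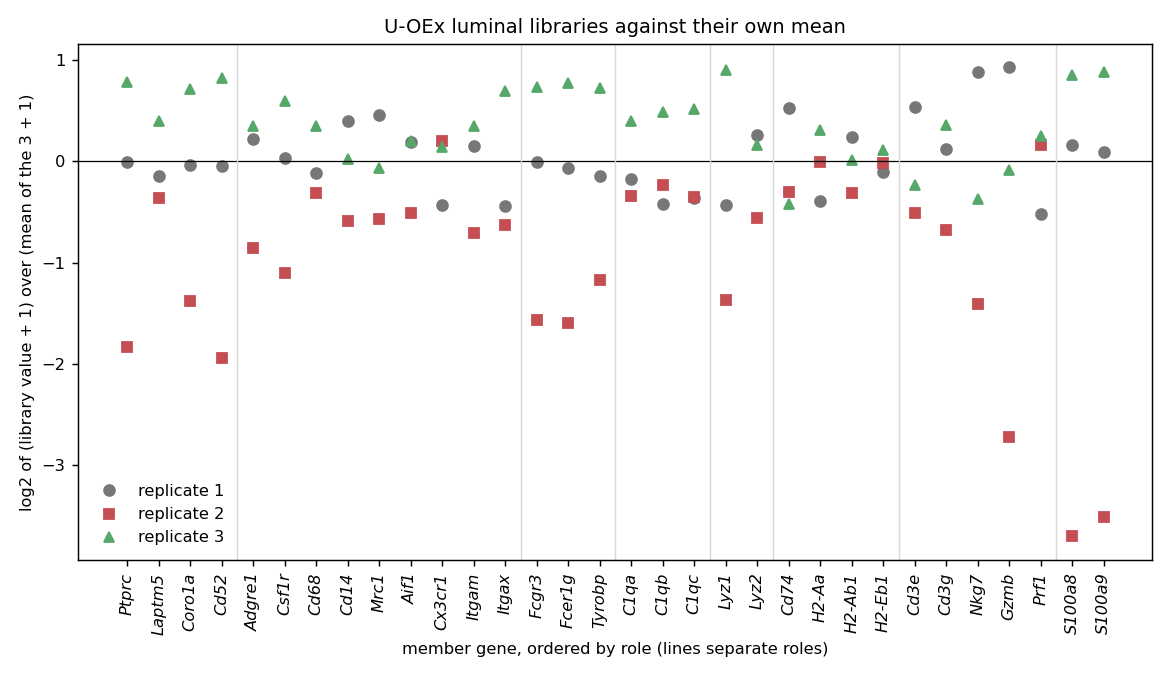
Log2 of each U-OEx LE library's value + 1 over the mean of the 3 libraries + 1 (y axis) for the 32 set genes with a mean of at least 1 (x axis, in order of role, with lines between roles); grey circles are replicate 1, red squares replicate 2 and green triangles replicate 3. Replicate 2 lies lowest for 25 genes and below -3 for both calgranulins, and it stays close to 0 for the 4 class II genes.

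With this spread, few steps in the order of levels per kilobase in U-OEx LE are clear of it. Of the 33 neighbouring pairs in that order, 31 overlapped between libraries. The exceptions were Cd14 (4610) above Cd74 (1306) and Itgax (54.3) above Adgre1 (26.1). S100a9 and S100a8 overlapped each other, and through their replicate 2 also Cd14. From Cd3g at 13.7 downward lay Gzmb, Cx3cr1, Cd3e, Nkg7, Lyz1, Prf1, Mrc1, Klrb1c and Cd163, the last at 0.163. Over the whole set 23 of 34 genes had a mean of at least 100 and 6 a mean under 10.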

How the data were processed

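RNA-seq values were deposited for 15 libraries, 3 per group. The deposited values are a signal: read counts that the authors divided by 1 factor per library, as the values themselves show, since 100% of them returned to whole reads (within 0.01). Per the submitters' processing notes the builds named are GRCm38 and mm10; aligner, counter and scaling are not given in the sources used here. Whether each set of tables was scaled apart is not given either.

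Genes were tested with limma 3.58.1 in R 4.3.3 (eBayes with trend) on log2(value + 1) for genes with a mean of at least 1, over the groups compared, with Benjamini-Hochberg adjustment over all genes and a threshold of 0.05. Between genotypes, recovered reads of genes shared by both sets of tables were scaled with TMM in edgeR 4.0.16. GE against LE and the interaction used the deposited scale. The scripts were tested on simulated data. Floors of 3 reads per library and all intervals cover counting error or library spread only.

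Alternatives were a pseudocount of 0.1, no filter, a filter at a mean of 10, other scalings, edgeR's quasi-likelihood test and DESeq2 1.42.0 on recovered reads, all groups in 1 fit, the replicate number as a block, and leaving out each library. The members and the lists of other genes were chosen with earlier results of these data known. All 34 members are reported. From the other lists, up to 6 genes past the threshold with the largest log2 difference are named per comparison. Ctss, H2-Ob, Zbtb46, Tapbp, Fyb, Ikzf1, Ly6g, Foxa2 and Cxcl15 against wild-type LE lie outside that rule and were chosen after their values were seen. So were values given for a named gene in a further group. Gene lengths come from the GENCODE annotation of GRCm38, in which all 34 symbols matched, and gene coordinates from RefSeq. Lengths are summed exons of all transcripts. No library pair within a group agreed within sampling noise (chi-square per degree of freedom from 18.2 to 204), so none was counted as a duplicate. Whether same-numbered libraries deviate together was checked for each comparison: in none did all 3 pairs correlate above 0.1, so replicate numbers were not used to pair libraries.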

Additional observations from a re-analysis of the deposited data

Results flagged for a closer look

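For 5 genes the difference of LE from 1 line labelled as overexpressing Notch1 to the other passed limma's adjusted threshold, in a comparison where 15% of all genes did. All 5 were higher in U-OEx LE, as were 6.97% of all genes. U-OEx LE stood above E-OEX LE by a log2 difference of 1.795 for Aif1, 3.229 for Itgam, 1.915 for H2-Aa, 2.045 for H2-Ab1 and 2.286 for H2-Eb1. Every U-OEx library lay above every E-OEX library for each gene, as for 20.1% of all genes. Without U-OEx replicate 1 none of the 5 passed, and without U-OEx replicate 3 only Itgam did. Aif1 and Itgam are not listed for wild type, so for these 2 genes no difference from wild type was analysed.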

How the results depend on the processing

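Across the alternatives no log2 difference of a called gene of the set changed sign. In U-OEx against wild-type LE, Cd74, H2-Aa, H2-Ab1, H2-Eb1 and Lyz1 passed in 15 of 15 alternatives, and the number called ran from 6 to 9 when 1 library was left out (2757 to 3439 over all genes, 3384 with every library). In U-OEx against E-OEX LE it ran from 0 to 5 (60 to 904 over all genes, against 642), and without a filter it was 3 (286 over all genes). In E-OEX against wild-type LE it was 0 throughout, while over all genes 277 calls became 105 without a filter, 458 with DESeq2, 616 with all groups in 1 fit and 56 to 322 with 1 library left out. In E-OEX against wild-type GE leaving out 1 library gave 0 to 1 (Mrc1 without wild-type replicate 2, Gzmb without E-OEX replicate 1) and 362 to 728 over all genes, against 670, and all groups in 1 fit gave 285. For the interaction 0 was called throughout; over all genes 315 became 501 with DESeq2 and 179 to 449 with 1 library left out. GE against LE gave 11 to 13 in wild type (5548 to 6108 over all genes) and 8 to 11 in E-OEX (3387 to 4200) with 1 library left out. The cause was not tested; a fit without 1 library has fewer samples, and its lone or paired libraries are assumed to vary like the others. On recovered reads edgeR's quasi-likelihood test called 3234 genes in U-OEx against wild-type LE, 475 in U-OEx against E-OEX LE, 232 and 649 in E-OEX against wild-type LE and GE, and 252 for the interaction. The share of calls that were higher was 71.6% on the deposited scale against 41.3% in E-OEX against wild-type GE, where the median of all genes moved from 0.05 to 0.497; in E-OEX GE against LE it was 56.8% with TMM and 46.2% after quantile normalization against 67.2%, and for the interaction 43.9% and 42.9% against 54.3%.

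With the replicate number as a block, 1 gene of the set, Mrc1, passed in E-OEX against wild-type GE (log2 difference -1.14, adjusted p = 0.0238) in place of 0; the block changed no other call of the set and no count over all genes by 1.5 times. The libraries share only a number, so this is no evidence of pairing.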
